A study of Solanum lycopersicum with 86 samples.

Results

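The response of stem pith to added far-red light was measured in 8 RNA-seq libraries of the tomato (Solanum lycopersicum) cultivar M82, 3 from far-red (FR) and 5 from white light (WL) plants, out of 86 libraries in 24 groups. They were chosen by their sample titles, as all libraries of M82 pith taken 48 h after the light treatment began. The labels name no mutant or transgene, so both groups are the M82 cultivar as such. All plants grew at 20 °C and 70% humidity with 16 h of light and 8 h of dark; WL plants stayed in white light of 200 PAR, and FR plants received that light plus far-red to a red to far-red ratio of 0.21. Pith is the innermost tissue of the first internode, the stem segment above the cotyledons. FR libraries carry the replicate numbers 1, 2 and 4, and WL libraries 1, 2, 4, 5 and 6. The other groups used here are M82 pith at 30 h (2 FR and 4 WL libraries), whole M82 internode at 48 h (3 and 4) and pith at 48 h of the cultivar Moneymaker (4 and 3).

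A low ratio of red to far-red light tells a plant that neighbours are near. Phytochromes, the red and far-red receptors, then become less active, which releases PHYTOCHROME INTERACTING FACTORS, and auxin and gibberellin drive the stem to elongate, the shade avoidance response. Pith parenchyma is the large-celled ground tissue in the core of the stem, and its cells elongate as the internode does. The table names genes by Solyc identifier only, none of which (0 of 23050) matched the reference gene table, so no gene names, roles or sequences are given, and 2 rising and 2 falling genes are named.

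Depth was unequal. FR replicates 1, 2 and 4 held 10.4, 5.43 and 1.72 M reads in listed genes, and WL replicates 1, 2, 4, 5 and 6 held 2.4, 1.48, 2.65, 3.27 and 0.918 M, against 0.769 to 22.1 M over the series. Between 18400 and 22087 genes had a read. Each value is a read count times a factor that the authors set for its library, so 1 read was worth 0.101 in FR replicate 1 and 0.909 in WL replicate 6. The median SD of a gene on the log2(value + 1) scale was 0.385 over the FR libraries and 0.556 over the WL libraries.

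Some WL libraries went against their labels. A cultivar score, the mean log2 value of 29 genes higher in M82 internodes minus that of 19 genes higher in Moneymaker internodes, was -2.33 in the library labelled WL replicate 1. That lies within the range of Moneymaker libraries (-3.2 to -0.32) and outside that of M82 libraries (1.16 to 4.28). The other 7 libraries scored 1.4 to 3.96. A time score, from 113 genes higher at 24 and 48 h and 97 genes higher at 6 and 30 h in internodes of both cultivars, was -2.15 in the library labelled WL replicate 6, within the range of 6 and 30 h libraries (-2.46 to -1.54). WL replicate 5 scored 0.21, just below the midpoint of 0.35, while the remaining 6 scored 2.03 to 2.84. By these scores 12 of the 86 libraries fell on the wrong side of a midpoint, among them 3 of the 5 WL libraries and none (0) of the 3 FR libraries of M82 pith at 48 h. Results are therefore given with all libraries as labelled and without those 12. The latter leaves 3 FR against 2 WL libraries (replicates 2 and 4). The score ranges given above also leave those 12 out. A library on the wrong side of a midpoint thus lies outside its own label's range by construction. Over the series, 6 M82 and 3 Moneymaker libraries fell on the other cultivar's side.

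**Figure D1:**
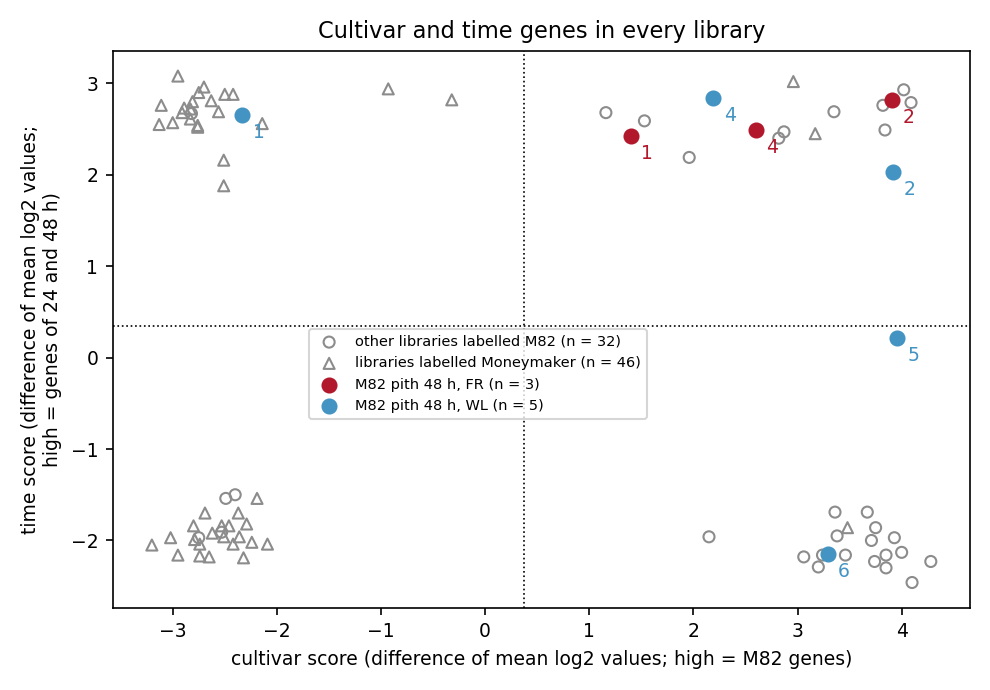
Cultivar score (x axis) against time score (y axis), both differences of mean log2 values, in all 86 libraries; numbers are replicates of M82 pith at 48 h and dotted lines the midpoints of 0.37 and 0.35. WL replicate 1 sits among Moneymaker libraries at -2.33, WL replicate 6 among 6 and 30 h libraries at -2.15, and WL replicate 5 near the time midpoint at 0.21.

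The tissue label was checked against genes that separate Moneymaker pith from Moneymaker internode, since no marker of pith could be matched by name. The mean log2 value of 126 genes lower in Moneymaker pith was 4.36, 3.24 and 3.97 in FR replicates 1, 2 and 4, and 4.11, 4.47, 4.32, 4.54 and 4.15 in WL replicates 1, 2, 4, 5 and 6. All 8 lay below the 7 whole M82 internodes at 48 h, at 4.58 to 5.12, by a narrow margin for WL replicate 5. The 88 genes higher in Moneymaker pith separated the tissues less well. Their mean log2 value was 4.73, 5.1 and 5.1 in the FR replicates and 4.67, 5.29, 5.01, 5.01 and 4.29 in the WL replicates, against 4.24 to 4.79 in the M82 internodes, so FR replicate 1 and WL replicates 1 and 6 lay within the internode range. On the 126 genes FR replicate 2 was the lowest. The median effect of FR on these 126 genes was -0.44 on the log2 scale, against 0.04 over all tested genes. Of the 126, 1 was called higher and 3 lower, against 0.725% and 0.378% of all tested genes. How far the dissection differed between the light groups was not tested, and in bulk tissue fewer cells of a type and less RNA per cell cannot be told apart.

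In M82 pith at 48 h, 210 genes were called as different between FR and WL when all libraries were used as labelled. Of 19029 genes tested, 138 (0.725%) were higher and 72 (0.378%) lower under FR, 1.1% in all, at a limma adjusted p below 0.05. The higher genes had a median log2 fold change of 1.26, and 113 of them changed at least 2-fold, 33 at least 4-fold and 3 at least 8-fold. For the lower genes the median was -1.5, and 64 of them fell at least 2-fold, 20 at least 4-fold and 9 at least 8-fold. The median over all tested genes was 0.04. Because 1 was added to each value before taking log2, the change of low genes is understated.

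The typical higher gene was already expressed in white light. Its median group mean was 5.53 in WL and 6.84 in FR on the log2 scale, while the lower genes went from 5.51 in WL to 3.79 in FR. No read was seen in any WL library for 1 of the higher genes, and with that gene at the bound that 3 reads in each WL library allow, the median of the list stayed 1.26. Called genes were commoner among highly expressed genes, when all tested genes were split by mean level into 3 equal classes. They made up 2.05% of the highest class, 0.82% of the middle and 0.441% of the lowest, where the median SE of a fold change was 0.28, 0.368 and 0.563. Groups did not overlap for 123 of the 138 higher genes and 57 of the 72 lower genes, against 6.92% and 3.36% of all tested genes. The genes were called on these same libraries, so this count is a description only.

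Individual libraries did not contribute equally. Relative to each gene's mean over the 8 libraries, the higher genes had a median deviation of 0.54, 0.69 and 1.25 in FR replicates 1, 2 and 4, and of -0.61, -0.17, -0.36, -0.15 and -1.11 in WL replicates 1, 2, 4, 5 and 6. FR replicate 4 was the highest and WL replicate 6, the library that scored as 6 or 30 h, the lowest. These libraries helped to choose the genes, so their positions are a description only. For the lower genes the deviations were -0.6, -0.73 and -1.39 across FR replicates and 0.68, 0.52, 0.51, 0.5 and 0.85 across WL replicates, with the same libraries at the extremes. FR replicate 4 is also the shallowest FR library and WL replicate 6 the shallowest of the 8.

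The number of genes called depended on which libraries entered. Without the 12 libraries, 13 genes (0.0683%) were called, 4 higher (0.021%) and 9 lower (0.0473%), of which 3 and 8 were also called with all libraries, and 1677 had an unadjusted p below 0.05, against 3424 before. All 138 and all 72 genes kept their sign, with medians of 1.06 and -1.32, though the libraries that remained had helped to choose them. Leaving out WL replicates 1 and 6 alone, a choice made after their scores were seen, gave 10 higher and 20 lower. Leaving out 1 library at a time gave 17 genes without FR replicate 4, 63 without WL replicate 6, 98 without FR replicate 2, 119 without WL replicate 1, 281 without WL replicate 4, 329 without WL replicate 5, 422 without FR replicate 1 and 473 without WL replicate 2. There were 7 higher and 7 lower genes called at each of these 8 omissions, and 2 and 7 that were called without the 12 libraries too. A fit with the replicate number as a block, which marks plants of the same batch, called 138 genes, 90 higher and 48 lower, 109 of them shared with the fit without it. The excess of higher genes also depended on scaling: they were 65.7% of calls with the authors' scaling and 51.1% with DESeq2 size factors.

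**Figure D2:**
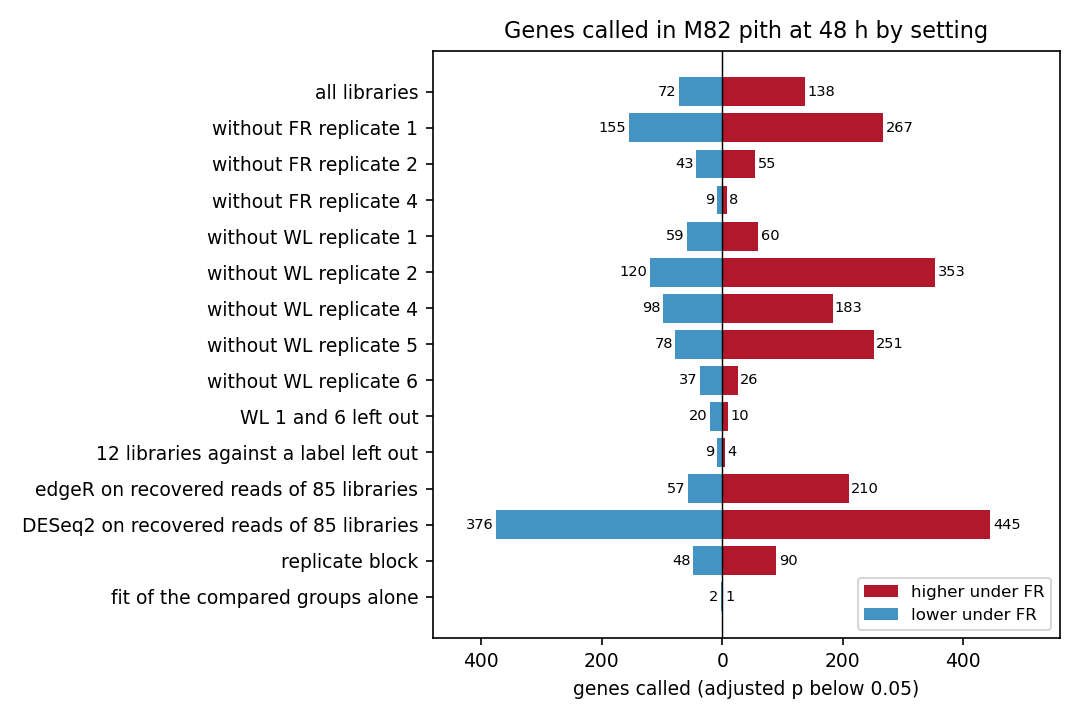
Number of genes called higher (right) and lower (left) under FR in M82 pith at 48 h, at an adjusted p below 0.05, for each set of libraries or test. All libraries give 138 and 72, the set without 12 libraries 4 and 9, and the fit of the compared groups alone 1 and 2.

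Genes that differ between the sampling times moved with the FR contrast, most where WL replicate 6 was included. The 113 genes higher at 24 and 48 h had a median log2 fold change of 0.69 with all libraries, 0.21 without WL replicate 6 and -0.02 without the 12 libraries. For the 97 genes higher at 6 and 30 h these medians were -0.84, -0.43 and -0.04. They were 0.26, 0.15 and 0.05 for the 48 cultivar genes. WL replicates 1, 5 and 6 were left out for their scores on these same genes. The smaller medians without them therefore follow in part from that choice. Of the 113 genes, 5 (4.42%) were called higher and 2 (1.77%) lower. Of the 97 genes, 6 (6.19%) were called lower and 0 higher, and of the 48 cultivar genes 0 were called. These shares stand against 0.725% called higher and 0.378% called lower of all tested genes. In internodes of both cultivars, 85 of the 138 higher genes (61.6%) were higher at 24 and 48 h than at 6 and 30 h. That held for 33.7% of all tested genes. Of the 72 lower genes, 38 (52.8%) were lower at 24 and 48 h, against 32.4% of all tested genes. The part of sampling time in single calls was not tested.

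The 2 higher genes with the smallest p were Solyc01g110710 and Solyc08g078300. Solyc01g110710 had a value of 28.8, 72.6 and 59.7 in FR replicates 1, 2 and 4, and of 6.43, 13.9, 5.61, 10.9 and 1.82 in WL replicates 1, 2, 4, 5 and 6. Every FR library lay above every WL library, and WL replicate 6 was the lowest, with 2 reads. The log2 fold change was 2.76 ± 0.45 (SE; 6.77-fold; limma adjusted p = 0.00018), and 2.36 ± 0.49 (adjusted p = 0.015) without the 12 libraries.

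Solyc08g078300 also separated the light groups. Its value was 121, 187 and 132 in FR replicates 1, 2 and 4, and 47.3, 37.8, 45.9, 31.1 and 14.5 in WL replicates 1, 2, 4, 5 and 6, again with no overlap and with WL replicate 6 lowest. The log2 fold change was 2.1 ± 0.37 (4.29-fold; limma adjusted p = 0.00061). Without the 12 libraries it was 1.76 ± 0.4 and missed the threshold, at an adjusted p of 0.051. FR minus WL differences between libraries of the same number were 1.33, 2.28 and 1.5 for this gene and 2, 2.3 and 3.2 for Solyc01g110710.

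Among the lower genes, Solyc02g085020 had the smallest p and was nearly lost under far-red light. Its value was 3.34, 3.96 and 7.66 in FR replicates 1, 2 and 4, against 218, 290, 153, 171 and 51.8 in WL replicates 1, 2, 4, 5 and 6. WL replicate 6 was again the lowest WL library and still well above every FR library. The log2 fold change was -4.76 ± 0.65 (27.1-fold lower; limma adjusted p = 1.1e-05), and -5.21 ± 0.67 (adjusted p = 4.8e-06) without the 12 libraries.

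Solyc09g065100 was steady in white light and close to absent under far-red. It had a value of 1.72, 0.396 and 0 in FR replicates 1, 2 and 4, from 17, 2 and 0 reads, and of 20.4, 16.6, 22.8, 16.1 and 21.8 in WL replicates 1, 2, 4, 5 and 6. The 0 in FR replicate 4 allows a value of up to 2.3, the worth of 3 reads there, which covers counting error only. The 5 WL libraries agreed within 0.22 (SD, log2 scale), including those whose labels were in doubt. The log2 fold change was -3.71 ± 0.57 (limma adjusted p = 7.6e-05) and -3.71 ± 0.68 (adjusted p = 0.0021) without the 12 libraries. Its size depended on the method, from -2.33 with a pseudocount of 4 to -6.11 in DESeq2.

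**Figure D3:**
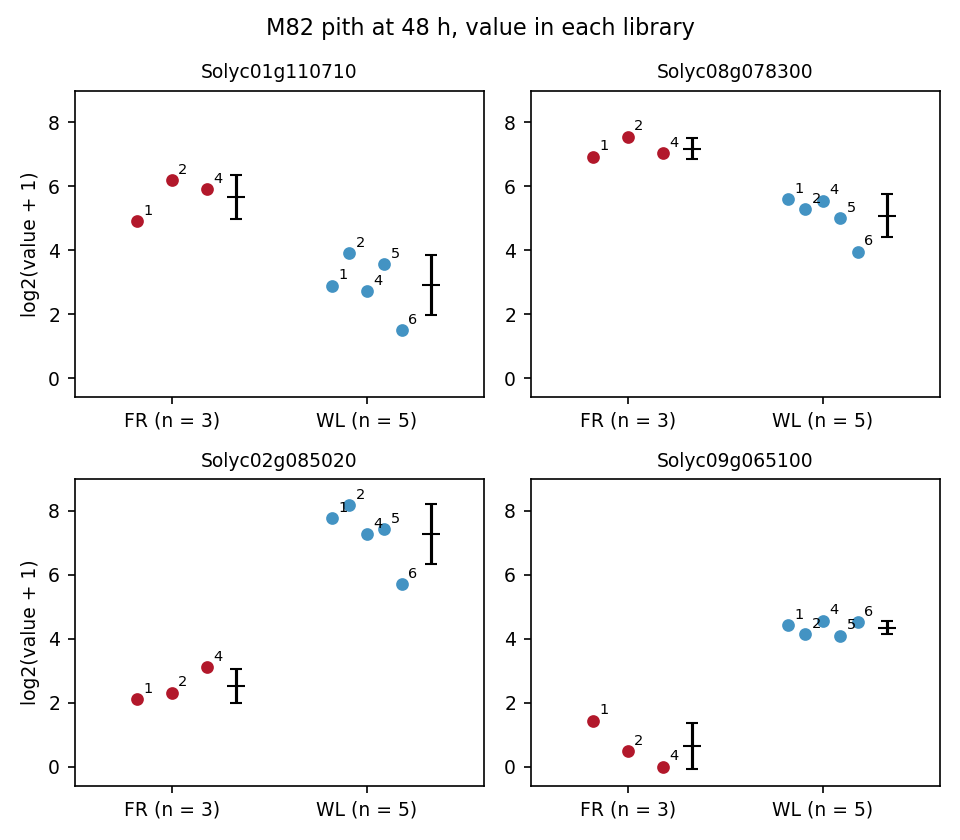
Log2(value + 1) of the 4 named genes in each library of M82 pith at 48 h, FR (n = 3) and WL (n = 5); numbers are replicates, black bars the mean ± SD. FR and WL libraries do not overlap for any of these 4 genes, and WL replicate 6 is the lowest WL library for all but Solyc09g065100.

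Solyc01g110710 stood in a run of genes that moved together. Of the 40 genes beside it in the order of identifiers on chromosome 1, 20 on each side, 32 were tested; with the gene itself, 29 of these 33 had a positive log2 fold change, with a median of 1.25 against 0.04 over all tested genes. The quartiles over all tested genes were -0.37 and 0.425. In this run 8 genes were called higher and 0 lower, against 0.725% and 0.378% of all tested genes. The run was centred on a gene picked for its small p in these same libraries, and that gene is among the 29 and the 8. The 8 had log2 fold changes of 1.62 to 2.97, or 3.08 to 7.83-fold, and their groups did not overlap in 7 of 8. A gene of the run with a value of 35.7 to 136 under FR and 4.54 to 20.8 under WL changed most, by 2.97 ± 0.54. Near-identical copies could share reads in such a run, and the sources used here do not say how the counting treated them.

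Over the whole list, 20 of the 138 higher genes, members of this run among them, and 0 of the 72 lower genes had another gene called in the same direction within 5 rows of the table. Of all tested genes, 0.725% were called higher and 0.378% lower. The lists differ in length, the share with such a neighbour was not computed for other genes, and the difference was not tested. Solyc08g078300, Solyc02g085020 and Solyc09g065100 had 32, 36 and 32 tested genes among the 20 neighbours on each side. Of these 0 were called, which lies close to the 1.1% of all tested genes. Without the 12 libraries, 25 of the 33 genes in the run were positive, with a median of 1.16; the 8 genes ranged from 1.45 to 2.78 and only Solyc01g110710 was called.

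The run was also positive in the other light comparisons. At 30 h in M82 pith 29 of the 33 genes were positive, against 50.1% of all tested genes, with a median of 1.32 and 1 called. In whole M82 internode at 48 h 26 were positive, against 52.8%, with a median of 0.42 against 0.03 over all genes and 0 called. In Moneymaker pith at 48 h 24 were positive, against 45.3%, with a median of 0.4 against -0.04 and 0 called, or 1 called without the 12 libraries. The 8 genes, chosen for their change in M82 pith at 48 h, ranged from 1.17 to 2.92, from 0.61 to 1.76 and from 0.66 to 1.9 in these comparisons.

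**Figure D4:**
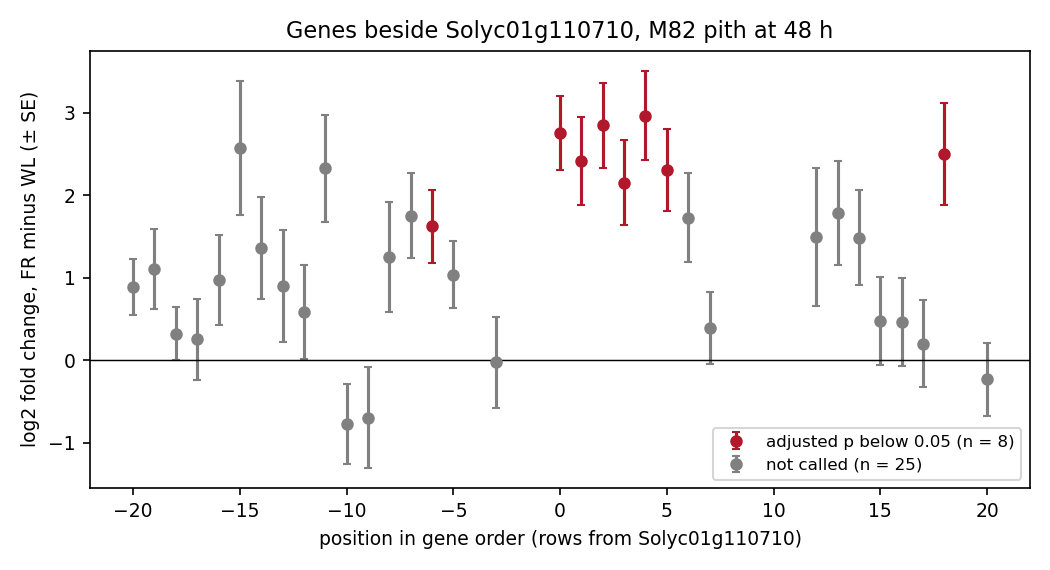
Log2 fold change, FR minus WL, with its SE (y axis) of tested genes within 20 rows of Solyc01g110710 (x axis, position in gene order) in M82 pith at 48 h. Red marks the 8 called genes, at 1.62 to 2.97; 29 of the 33 points lie above 0.

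The same light contrast at 30 h, in whole internode and in the other cultivar uses other libraries by label. It asks how far the pith response at 48 h was seen elsewhere. WL replicate 1 of M82 pith at 30 h had a cultivar score of -2.53, on the Moneymaker side. FR replicate 3 of Moneymaker pith at 48 h had 3.17, on the M82 side. Both are among the 12 and are included in the group values given below. With all libraries as labelled, M82 pith at 30 h had 7 higher (0.0368%) and 32 lower (0.168%), 0.205% in all, M82 internode at 48 h had 6 higher (0.0315%) and 0 lower (0%), and Moneymaker pith at 48 h had 7 higher and 7 lower (0.0368% each, 0.0736% in all). Of the 138 higher genes, 6, 5 and 5 were called higher in these comparisons, and of the 72 lower genes 8, 0 and 4 were called lower, with 0 called in the opposite direction. Altogether 9 of the 138 and 10 of the 72 were called in at least 1 of the other comparisons, and 3 higher genes in all 3. The order of the counts depended on the libraries. Without the 12, M82 pith at 48 h had 4 higher and 9 lower, while M82 pith at 30 h had 11 and 31. M82 internode had 9 and 5, and Moneymaker pith 6 and 13. The 12 hold no M82 internode library at 48 h, so the internode counts moved through the shared spread estimate and the adjustment.

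Most of the genes leaned the same way at 30 h in M82 pith. Since they were chosen for their change at 48 h, their sizes in the other comparisons are not set against those at 48 h. At 30 h 129 of the 138 higher genes (93.5%) had a positive fold change, with a median of 0.55, against 50.1% of all tested genes, and 69 of the 72 lower genes (95.8%) a negative one, against 49.9%, with a median of -0.69. In Moneymaker pith at 48 h 104 of the 138 (75.4%) and 65 of the 72 (90.3%) shared the sign, with medians of 0.24 and -0.45, against 45.3% and 54.7% of all tested genes. In M82 internode at 48 h 87 (63%) and 51 (70.8%) did, with medians of 0.12 and -0.19, against 52.8% and 47.2% of all tested genes. Without the 12 libraries these shares were 92% and 90.3% at 30 h, against 48.6% and 51.4% of all tested genes. In Moneymaker pith they were 77.5% and 87.5%, against 50.3% and 49.7%. The internode shares could not change, because the 12 hold no M82 internode library at 48 h.

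**Figure D5:**
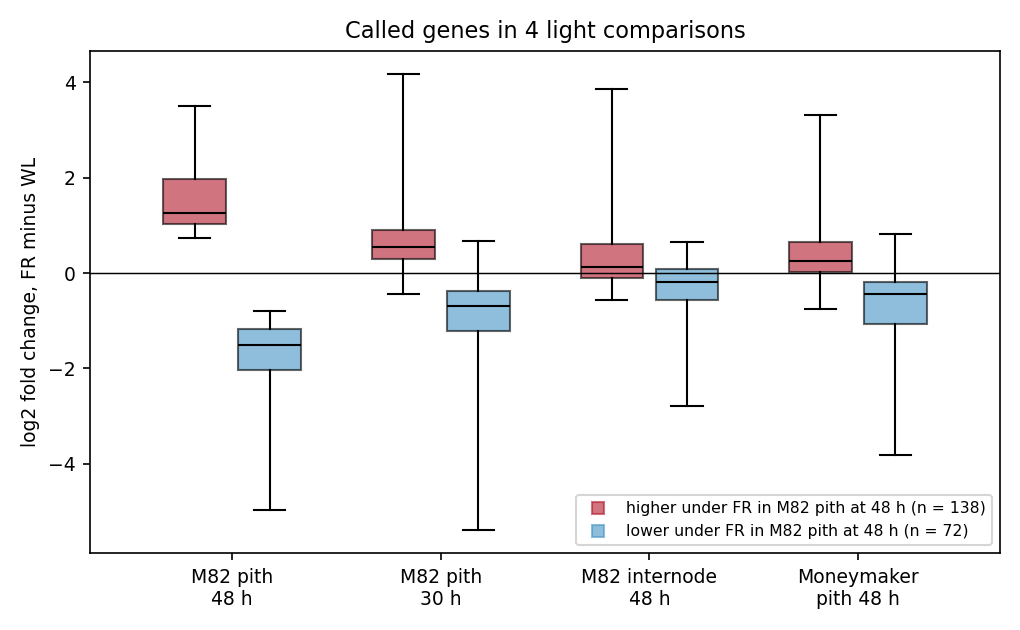
Log2 fold change, FR minus WL, of the 138 genes called higher (red) and the 72 called lower (blue) in M82 pith at 48 h, in 4 light comparisons; boxes show quartiles and median, whiskers the full range. Medians are 1.26 and -1.5 in the comparison that chose the genes, 0.55 and -0.69 at 30 h, 0.12 and -0.19 in internode and 0.24 and -0.45 in Moneymaker pith.

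Genes called higher elsewhere were mostly called higher in M82 pith at 48 h as well. Of the 7 genes higher at 30 h in M82 pith, 6 were called higher at 48 h, with a median log2 fold change of 2.97. All 7 genes higher in Moneymaker pith were positive here and 5 were called, and of the 6 genes higher in M82 internode 5 were called. Of the 32 genes lower at 30 h, 8 were called lower at 48 h and 26 were negative, with a median of -0.52. Of the 7 genes lower in Moneymaker pith 4 were called lower, with a median of -2.12. Over all tested genes in M82 pith at 48 h, 0.725% were called higher and 0.378% lower. Their median log2 fold change was 0.04, with quartiles of -0.37 and 0.425. Without the 12 libraries, 1 of each of the 3 lists of higher genes was called here, against 0.021% of all tested genes.

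The named genes were also followed in these comparisons. Solyc02g085020 fell by 5.15 ± 0.77 at 30 h in M82 pith (limma adjusted p = 0.00015), from a value of 83.4 ± 67.1 (SD, n = 4) in WL to 0.948 ± 0.63 (n = 2) in FR. It fell by 3.63 ± 0.68 in Moneymaker pith (adjusted p = 0.0092), from 242 ± 52.6 (n = 3) to 21.4 ± 12 (n = 4). In whole M82 internode its log2 fold change was -2.69 ± 0.68 (adjusted p = 0.26), with FR libraries at 50.7 ± 24.8 (n = 3) against 4.98 ± 2.34 (n = 3) in FR pith. It was called in internode without the 12 libraries (-2.69 ± 0.56, adjusted p = 0.023). The 12 hold no library of that comparison, so only the spread estimate shared by all groups and the adjustment changed.

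Solyc09g065100 fell by 3.23 ± 0.68 at 30 h in M82 pith (limma adjusted p = 0.012). Its log2 fold change was -1.83 ± 0.6 in Moneymaker pith (adjusted p = 0.67) and -1.06 ± 0.6 in M82 internode (adjusted p = 0.88), where FR libraries were at 9.85 ± 2.45 (n = 3). FR pith of M82 at 48 h was at 0.705 ± 0.9 (n = 3), below every FR library of M82 internode at 48 h.

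Solyc08g078300 rose in M82 internode by 2.26 ± 0.38 (limma adjusted p = 0.00047) and in Moneymaker pith by 1.87 ± 0.38 (adjusted p = 0.018), and its log2 fold change at 30 h in M82 pith was 1.7 ± 0.43 (adjusted p = 0.077). Solyc01g110710 was at 2.18 ± 0.53 at 30 h in M82 pith (adjusted p = 0.051), 1.52 ± 0.47 in M82 internode (adjusted p = 0.58) and 1.44 ± 0.47 in Moneymaker pith (adjusted p = 0.69). Both were called at 30 h in M82 pith without the 12 libraries, Solyc08g078300 at 1.84 ± 0.4 (adjusted p = 0.018) and Solyc01g110710 at 2.42 ± 0.49 (adjusted p = 0.0093).

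Whether the FR effect itself differed was tested as an interaction across all genes. The 2 count tools, edgeR and DESeq2, were run here without FR replicate 1. Between 48 and 30 h in M82 pith limma called 0 genes (0%), edgeR 0 and DESeq2 0, while 1012 genes had an unadjusted limma p below 0.05. Between M82 and Moneymaker pith at 48 h limma called 0 genes (0%), edgeR 0 and DESeq2 0, and 1281 had an unadjusted limma p below 0.05. Between M82 pith and internode at 48 h limma called 0 genes (0%), or 3 without WL replicate 1, edgeR 0 and DESeq2 41, and 2499 had an unadjusted limma p below 0.05. If no gene differed, 951 of the 19029 genes would be expected below that p in each test. The median SE of these differences was 0.614, 0.573 and 0.573 on the log2 scale, so a difference had to be large to be called. Without the 12 libraries limma called 0 in each, with 820, 581 and 1705 at an unadjusted p below 0.05.

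The same tests were read for the named genes. The FR effect on Solyc09g065100 was 2.64 ± 0.82 log2 units more negative in M82 pith than in internode (limma adjusted p = 0.31), and 1.88 ± 0.82 more negative than in Moneymaker pith (adjusted p = 0.73). For Solyc02g085020 the difference from internode was -2.07 ± 0.94 (adjusted p = 0.34). From Moneymaker pith it was -1.13 ± 0.94 (adjusted p = 0.79). For Solyc01g110710 the differences were 1.24 ± 0.65 from internode (adjusted p = 0.4) and 1.32 ± 0.65 from Moneymaker pith (adjusted p = 0.73). For Solyc08g078300 they were -0.16 ± 0.53 and 0.23 ± 0.53. None of the 4 genes passed the threshold in these tests or between 48 and 30 h, where the differences lay between -0.48 ± 0.88 and 0.58 ± 0.7.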

How the data were processed

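Sequencing libraries were random-primed from polyA RNA, per the labels' protocols, and the submitters' processing notes name FastQC, Trim Galore, STAR and featureCounts. The sources used here give no genome build, annotation or strand setting. The deposited signal per gene is a read count that the authors scaled with 1 factor per library, as the values show: of nonzero values below 2000 reads, 100% were whole multiples of the value of 1 read within 0.02 of a read. The sources give no basis for those factors.

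Groups came from the sample titles. After removal of genes whose mean value was under 1, 19029 of 23050 entered limma 3.58.1 (R 4.3.3; trend and robust moderation) as log2(value + 1), as a single model of the 86 libraries and 24 group means, with Benjamini-Hochberg adjustment. The labels call the samples biological replicates. Replicate numbers mark plants of the same batch, per the series' design text; same-numbered libraries had residual correlations of 0.358, 0.272 and 0.028, against a mean of -0.052 over the other 12 pairs. EdgeR 4.0.16 (quasi-likelihood) and DESeq2 1.42.0 were run on recovered reads of 85 libraries. FR replicate 1 of M82 pith at 48 h was left out of both, because the value of 1 read there lies so near to a round decimal step that an automated check of the units did not accept its reads as recovered; its depth and the TMM and size factor scalings still rest on that value. The limma procedure was tested on simulated data, with genes changed in the FR libraries of M82 pith at 48 h. It called 17% of 100 genes changed 2-fold and 64% of 100 genes changed 4-fold, along with 8 unchanged genes. Apart from those changes, each simulated gene had the same mean in all 86 libraries, with independent noise. The simulation held no time, tissue, cultivar or batch differences and no libraries against their labels. Its shares therefore need not hold for these data.

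The members, lists and tests were chosen with earlier results of these data known. Genes are named as the 2 higher and 2 lower with the smallest p, an adjusted p below 0.05, a change of 2-fold or more, and a level (log2) of 1 or more in the higher group. Gene lists by name could not be applied. The label scores used genes with a median difference of at least 1.5 (log2) in internodes, at each of 4 times for cultivar and in both cultivars for time. That threshold, the midpoints, the window of 20 genes and the pith check were set after seeing the data, and an earlier score from the most different genes was dropped because it moved with time.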

Additional observations from a re-analysis of the deposited data

Results flagged for a closer look

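The cultivar score of the library labelled WL replicate 1 was -2.33, while WL replicates 2, 4, 5 and 6 scored 3.92, 2.19, 3.96 and 3.29. The gap to the nearest of them was 0.719 of the range of the 5 libraries, above the critical value of Dixon's test. Chance alone would flag some such groups, and of the 8 measures of WL libraries examined in this way this was the only one flagged.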

How the results depend on the processing

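The count of 210 genes stayed within 1.5 times under other pseudocounts, filters and scalings, in edgeR and without WL replicate 4, at 156 to 281. It was 821 in DESeq2, where the median log2 fold change of all genes was -0.125 against 0.044, 3 with only the compared groups fitted, 9 with only M82 pith fitted, 138 with a replicate block, 41 with a replicate block and only the compared groups, 13 without the 12 libraries, 30 without WL replicates 1 and 6, and 891 with library quality weights. Leaving out 1 library gave 17 to 473. EdgeR called 267, 210 higher and 57 lower. Both edgeR and DESeq2 lacked FR replicate 1, without which limma called 422. The difference between pith and internode had 0 calls, but 41 in DESeq2, 228 with quality weights and 0 to 3 without 1 library. That between cultivars had 0 but 17 with quality weights, and that between times 0 under every alternative run. The cause was not tested. Among named genes, calls were lost for Solyc01g110710 (adjusted p = 0.14 for the compared groups alone, 0.057 for M82 pith alone) and Solyc08g078300 (0.12 for the compared groups alone, 0.051 without the 12 libraries). Solyc02g085020 and Solyc09g065100 were called under all 23 alternatives, the latter at -2.33 (pseudocount 4), -4.84 (pseudocount 0.25), -5.89 (edgeR) and -6.11 (DESeq2), and no named gene reversed. Both count tools called 102 of the 138 higher and 39 of the 72 lower genes. EdgeR and DESeq2 on all 86 libraries were planned and not run. Depth limits low genes most: with 0.918 M reads in WL replicate 6, 3 reads were worth a value of 2.73.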
